A study of Mus musculus with 6 samples.

Results

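The Klotho, calcium and phosphate handling genes described here are 10 genes of the renal tubule, taken by gene symbol from the authors' deposited table of 18421 genes. They are Kl, Fgfr1, Vdr, Cyp27b1, Cyp24a1, Trpv5, Calb1, S100g, Slc34a1 and Slc34a3, and all 10 were present in that table. The study compared whole kidneys of 3 Dkk3-/- mice with those of 3 C57Bl/6 mice carrying wild-type Dkk3, all taken 7 days after unilateral ureteral obstruction (UUO), in which the ureter of a single kidney is tied so that urine backs up and the tubules atrophy. The labels give C57Bl/6 as the background strain of both groups, and no kidney without the operation enters the comparison. The Dkk3 protein is a secreted member of the dickkopf family. Age, sex, the kind of Dkk3 allele and whether wild-type mice were littermates are not given in the labels, so differences between colonies and loss of Dkk3 cannot be told apart.

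The kidney sets how much filtered calcium and phosphate returns to the blood. Phosphate is taken up in the proximal tubule by the sodium-phosphate cotransporters encoded by Slc34a1 and Slc34a3, and the bone hormone FGF23 lowers this uptake through FGF receptors that need the membrane protein Klotho as co-receptor. Calcium that escapes the earlier segments enters cells of the distal convoluted and connecting tubule through the channel TRPV5, is carried across the cell by calbindins and leaves on the blood side. Vitamin D links both, since the kidney activates it with the Cyp27b1 enzyme, degrades it with the Cyp24a1 enzyme and answers it through the receptor encoded by Vdr. Loss of Klotho is a well-known feature of injured kidneys.

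The values are the authors' edgeR results for each gene, namely a log2 fold change, a likelihood-ratio score, a p-value with its adjusted value, and the average level over all 6 libraries as log2 CPM (CPM is a gene's share of a library's reads on a fixed scale). No value per mouse was at hand, so the level in each sample, the overlap of the groups and the depth of each library are unknown. An approximate standard error was computed as the size of the log2 fold change divided by the square root of the score, and approximate 95% intervals extend 1.96 such errors to each side. A level for each genotype was implied from the average and the fold change, with both groups given equal weight. Dkk3 itself had implied levels of 44.4 CPM in wild type and 2.06 CPM in the knockout from the authors' deposited table (adjusted p = 2.98e-67, edgeR), and its negative sign fixes the direction of every fold change below as knockout over wild type. The threshold for a call was an adjusted p under 0.05 over all genes.

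Of the 10 genes 1 was lower in the knockout at this threshold, Calb1, and none was higher. Among all genes the shares were 0.89% called lower, 1.17% called higher and 2.06% in either direction, counted from the authors' deposited table. At an unadjusted p under 0.05 there were 2 of the 10, Calb1 and Kl, against 10.6% of all genes. The log2 fold change was below 0 for 6 of the 10 and above 0 for 4, with a median of -0.15, against a median of 0.01 and 47.7% of genes below 0 in the whole table. None of the 10 lies on chromosome 7, which carries Dkk3 and 103 of the 379 called genes. That chromosome carries 1417 of the 18314 genes with a known position.

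**Figure D1:**
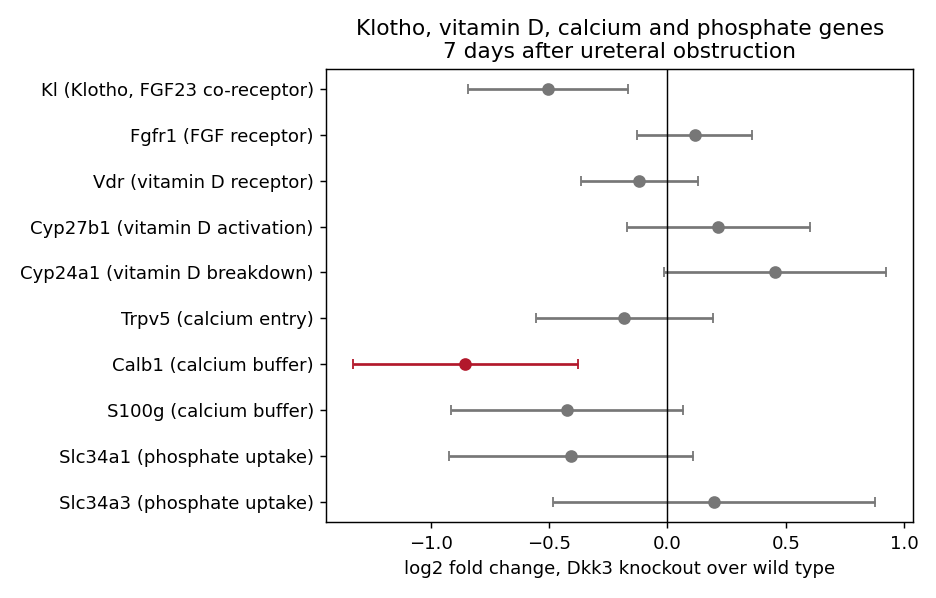
Log2 fold change of each gene, Dkk3 knockout over wild type (horizontal axis), with its approximate 95% interval as a bar, genes ordered by role from top to bottom. Calb1 is in red as the single gene past an adjusted p of 0.05, and the intervals of Calb1 and Kl lie wholly below 0 while those of the other 8 genes cross it.

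Klotho and its receptor partner come first. Kl (ENSMUSG00000058488), which encodes the FGF23 co-receptor, lies on chromosome 5 (plus strand, GRCm38, 150952607 to 150993817) with 5 exons in its main annotated transcript. From the authors' deposited table its implied level was 234 CPM in wild type and 165 CPM in the knockout, a log2 fold change of -0.50 with an approximate standard error of 0.17. The authors' deposited table gives it an adjusted p of 0.107 (edgeR, unadjusted p = 0.00343), so Kl did not pass the threshold. The approximate interval runs from -0.84 to -0.17, that is from 0.558 to 0.891 of the wild-type level. By unadjusted p it ranked 592nd of the 18421 genes.

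Fgfr1 (chromosome 8, plus strand, 25513654 to 25575718) encodes the receptor tyrosine kinase that pairs with Klotho to bind FGF23. Its implied level was 73.6 CPM in wild type and 79.7 CPM in the knockout, with a log2 fold change of 0.12 in the authors' deposited table (edgeR adjusted p = 0.851). The approximate interval runs from -0.13 to 0.36, that is from 0.915 to 1.28 of the wild-type level. This was among the tightest estimates of the set, with an approximate standard error of 0.125 (log2). Fgfr1 is also made by fibroblasts and other interstitial cells, and the table does not separate them from tubule cells.

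Among the 17 measured genes of FGF23 and Klotho signalling, a list that includes Kl and Fgfr1, none was called by edgeR, 4 had an unadjusted p under 0.05, and the median log2 fold change was 0.00. The smallest p after that of Kl belonged to Fgfr2, which encodes a related FGF receptor and stood at a log2 fold change of -0.45 (edgeR adjusted p = 0.109, the authors' deposited table). The further receptor genes Fgfr4 and Fgfr3, chosen here after their values were seen, stood at -0.27 and -0.19 in the authors' deposited table (adjusted p = 0.365 and 0.757, edgeR). The fourth gene at an unadjusted p under 0.05, and the 1 above 0, was Dusp6, also chosen after its value was seen, which encodes a phosphatase induced by FGF signalling, at 0.27 (edgeR adjusted p = 0.445, the authors' deposited table). The receptor genes Fgfr2, Fgfr3 and Fgfr4 were below 0 and Fgfr1 above it, with none of the 4 past the threshold. The hormone gene Fgf23, mainly a product of bone, averaged 0.183 CPM in the authors' deposited table, with a log2 fold change of 1.16 and an approximate standard error of 1.06.

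Vitamin D genes follow. Vdr (chromosome 15, minus strand, 97854425 to 97910630) encodes the nuclear receptor for active vitamin D. Its implied level was 152 CPM in wild type and 140 CPM in the knockout, and its log2 fold change was -0.12 in the authors' deposited table (edgeR adjusted p = 0.845). The approximate interval runs from -0.36 to 0.13, that is from 0.777 to 1.09 of the wild-type level.

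Cyp27b1 (chromosome 10, plus strand, 127048250 to 127053006) encodes the 1-alpha-hydroxylase that makes active vitamin D in the proximal tubule. The implied level was 22.8 CPM in wild type and 26.5 CPM in the knockout, a log2 fold change of 0.22 with an approximate interval of -0.17 to 0.60 (edgeR adjusted p = 0.791, the authors' deposited table). Cyp24a1 (chromosome 2, minus strand, 170482708 to 170497145) encodes the 24-hydroxylase that inactivates vitamin D and is a classic target of the vitamin D receptor. Its implied level was 59.5 CPM in wild type and 81.5 CPM in the knockout, a log2 fold change of 0.45 with an approximate interval of -0.02 to 0.92 (edgeR adjusted p = 0.506, the authors' deposited table). The activating and the inactivating enzyme genes were both above 0, and neither passed.

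The vitamin D list of 13 measured genes had none called by edgeR, 1 at an unadjusted p under 0.05, and a median log2 fold change of 0.06. That gene was Gc, which encodes the vitamin D binding protein of plasma, at a log2 fold change of 0.40 (edgeR adjusted p = 0.0586, the authors' deposited table). Gc averaged 208.5 CPM in the authors' deposited table, and the liver is its main source in the body. The proximal endocytosis receptors that take up filtered vitamin D with its binding protein, Lrp2 (megalin) and Cubn (cubilin), were chosen after their values were seen and stood at -0.47 and -0.41 in the authors' deposited table (adjusted p = 0.558 and 0.609, edgeR). Dab2 and Amn of the same list stood at -0.08 and -0.01 in the authors' deposited table. Cyp2r1 stood at 0.56 (edgeR adjusted p = 0.549, the authors' deposited table). Of the 13 genes, 6 were below 0 and 7 above.

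**Figure D2:**
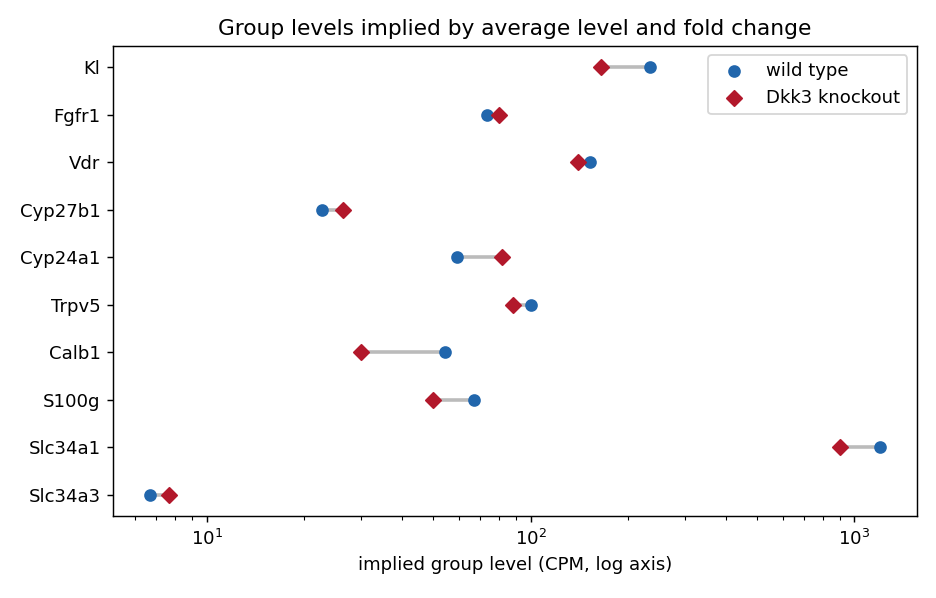
Level of each gene in wild type (blue circles) and Dkk3 knockout (red diamonds) in CPM on a log axis, as implied by the authors' average level and fold change, with no value per mouse. Calb1 has the widest gap, from 54.3 CPM in wild type to 30.03 CPM in the knockout, and Slc34a1 stands far to the right of the other genes.

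The distal calcium pathway held the called gene. Calb1 (ENSMUSG00000028222; chromosome 4, plus strand, 15881264 to 15908064, 11 exons in the main annotated transcript) encodes calbindin-D28k, the calcium buffer of distal convoluted and connecting tubule cells. Its implied level fell from 54.3 CPM in wild type to 30.03 CPM in the knockout, a 1.81-fold lower level. The log2 fold change was -0.85 with an approximate standard error of 0.24 and an approximate interval of -1.33 to -0.38 (edgeR adjusted p = 0.0277, the authors' deposited table). By unadjusted p it ranked 280th of the 18421 genes, and of 3633 genes within 1.5-fold of its level 99.3% had a smaller fold change in size. The call ended when the score was read on an F distribution with 14 degrees of freedom, of which 10 are assumed, which gave an adjusted p of 0.22 for Calb1. Across all 7 alternative settings its adjusted p ran from 0.0241 to 0.22.

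S100g (chromosome X, minus strand, 162961992 to 162964599) encodes calbindin-D9k, the smaller calcium buffer of the same cells. Its implied level was 66.9 CPM in wild type and 49.9 CPM in the knockout, a log2 fold change of -0.42 with an approximate interval of -0.91 to 0.07 (edgeR adjusted p = 0.609, the authors' deposited table). Trpv5 (chromosome 6, minus strand, 41652173 to 41680769) encodes the calcium channel through which calcium enters these cells. Its implied level was 100.2 CPM in wild type and 88.3 CPM in the knockout, a log2 fold change of -0.18 with an approximate interval of -0.55 to 0.19 (edgeR adjusted p = 0.839, the authors' deposited table). All 3 genes of this route were below 0, and their approximate intervals overlap. A test of the difference between genes needs values per mouse and was not run.

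The list for transcellular calcium and magnesium transport, which includes Calb1, S100g and Trpv5, gave 1 called of 15 measured. That was Calb1 itself, also the single gene at an unadjusted p under 0.05. The median log2 fold change of the list was -0.13. Next by p were Trpm6, the distal magnesium channel gene, at 0.28 and Klhl3, a regulator of distal salt transport, at -0.38 in the authors' deposited table (adjusted p = 0.531 and 0.577, edgeR). Genes chosen after their values were seen show the rest of the route. Among the exit transporters, the sodium-calcium exchanger gene Slc8a1 stood at -0.13 in the authors' deposited table. The calcium pump genes Atp2b1 and Atp2b4 stood at 0.03 and -0.13 in the authors' deposited table. The related entry channel gene Trpv6 stood at 0.01 and the thiazide-sensitive cotransporter gene Slc12a3, which marks the distal convoluted tubule, at 0.02 in the authors' deposited table, with both adjusted p values at 0.996 or above (edgeR).

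Listed markers of the distal convoluted and connecting tubule centred near 0. How well they follow the cells that make Calb1 was not tested. The 6 distal convoluted and connecting tubule markers, all of which are also in the transcellular list above and so are no separate set, had a median log2 fold change of 0.04, with 2 below 0, 4 above 0, none called by edgeR and none at an unadjusted p under 0.05. Their summed implied level was 358 CPM in wild type and 343 CPM in the knockout, and Pvalb was the scarcest at 0.280 CPM. Of their summed average of 351 CPM, Slc12a3, which marks the distal convoluted tubule, gave 179 CPM. The sum thus says little about the connecting tubule alone. In the collecting duct list each of the 8 markers was negative, the median was -0.72 and 6 were called lower, and their summed implied level was 389 CPM in wild type and 243 CPM in the knockout. Their part in the Calb1 result was not tested. In whole kidney, fewer cells of a type and less RNA per cell cannot be told apart.

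Calcium and magnesium also cross between cells of the thick ascending limb. The list for this paracellular route and calcium sensing shares no gene with the 10. All 10 of its genes were below 0, against 47.7% of all genes, with a median log2 fold change of -0.35. None was called by edgeR. At an unadjusted p under 0.05 there were 4, all lower, against 4.71% of all genes lower at that level. The tight junction gene Cldn19 stood at -0.46 and the calcium-sensing receptor gene Casr at -0.52 in the authors' deposited table (adjusted p = 0.0937 and 0.127, edgeR). The 6 thick ascending limb markers, of which 5 are also in that list, had a median of -0.32 with none called. The part of a shift of the whole segment in the values of this list was not tested.

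Phosphate transporters close the set. Slc34a1 (ENSMUSG00000021490; chromosome 13, plus strand, 55398187 to 55415592) encodes the main sodium-phosphate cotransporter of the mouse proximal tubule. It was the most abundant of the 10, with implied levels of 1199 CPM in wild type and 904 CPM in the knockout. The log2 fold change was -0.41 with an approximate interval of -0.92 to 0.11 (edgeR adjusted p = 0.663, the authors' deposited table). That interval runs from 0.527 to 1.08 of the wild-type level. Its exons share 545 nt (11.7%) with those of Pfn3 on the opposite strand, and the use of strand in counting is not given in the sources used here. Pfn3 averaged 11.3 CPM in the authors' deposited table, against 1051 CPM for Slc34a1. The log2 fold change of Pfn3 was -0.52 (edgeR adjusted p = 0.428, the authors' deposited table). Exons of Cyp24a1 share 83 nt with Pfdn4 and those of Fgfr1 share 164 nt with Gm16159, also on the opposite strand.

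Slc34a3 (chromosome 2, minus strand, 25228898 to 25234364) encodes the second proximal sodium-phosphate cotransporter. It was the scarcest of the 10, with implied levels of 6.67 CPM in wild type and 7.65 CPM in the knockout. The log2 fold change was 0.20 with an approximate interval of -0.48 to 0.88 (edgeR adjusted p = 0.944, the authors' deposited table). The fold changes of the 2 cotransporters thus had opposite signs, with both intervals crossing 0.

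Of 11 measured genes for phosphate transporters and their scaffolds, none was called by edgeR, 1 had an unadjusted p under 0.05 and the median log2 fold change was -0.12. Pdzk1, a scaffold that anchors Slc34a1 protein at the brush border, stood at -0.38 and the proton exchanger gene Slc9a3 at -0.33 in the authors' deposited table (adjusted p = 0.425 and 0.609, edgeR). The housekeeping phosphate transporter genes Slc20a1 and Slc20a2, chosen after their values were seen, stood at 0.25 and 0.05 in the authors' deposited table. Proximal tubule markers other than these genes had a median of -0.41, the same value as Slc34a1, with 9 of 10 below 0, none called by edgeR and 4 at an unadjusted p under 0.05. Their summed implied level was 4694 CPM in wild type and 3586 CPM in the knockout, the scarcest stood at 61.7 CPM, and their part in the Slc34a1 value was not tested.

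Hormone genes upstream of these transporters gave no call either. Of 7 measured genes for parathyroid hormone signalling and other calcium hormones, none was called by edgeR, 1 had an unadjusted p under 0.05, and the median log2 fold change was -0.04. The stanniocalcin gene Stc1 stood at -0.42 and the parathyroid hormone receptor gene Pth1r at -0.20 in the authors' deposited table (adjusted p = 0.427 and 0.725, edgeR). Over all 6 pathway lists without the 10 genes, 63 genes were measured, 38 below 0 and 25 above 0, with a median of -0.05. None was called by edgeR, and 10 had an unadjusted p under 0.05, 8 of them lower and 2 higher, where 4.71% and 5.91% of all genes were so.

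**Figure D3:**
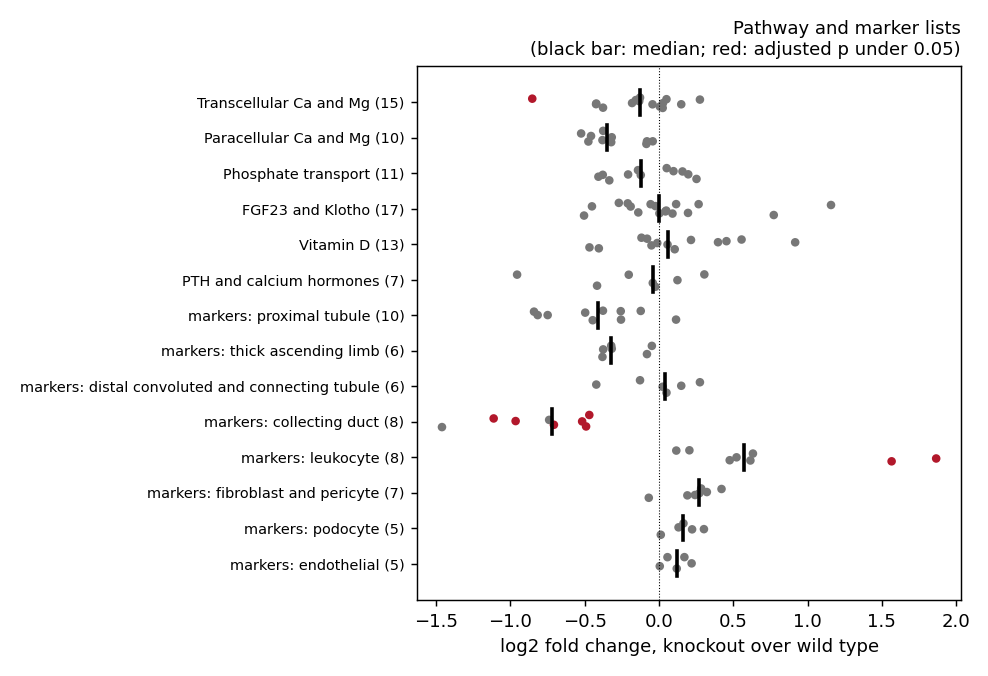
Log2 fold change, knockout over wild type, of every measured gene in the 6 pathway lists and 8 marker lists, 1 point a gene, with the number measured in brackets, the list median as a black bar and genes past an adjusted p of 0.05 in red. Calb1 is the single red point among the pathway lists, whereas 6 collecting duct and 2 leukocyte markers are red.

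Markers of other cell types were read in the same kidneys. All 8 leukocyte markers were above 0 with a median log2 fold change of 0.57 and 2 called higher, and their summed implied level was 377 CPM in wild type and 511 CPM in the knockout. Fibroblast and pericyte markers (7 measured), podocyte markers (5) and endothelial markers (5) had medians of 0.27, 0.16 and 0.12, with none called by edgeR and none under 0.05 before adjustment. CPM values are shares of a library, and the part of these shifts in the values of the 10 genes was not tested. No marker was listed at 0, and the tubule markers Umod and Slc27a2, the most abundant of their lists, averaged 4039 and 1889 CPM in the authors' deposited table.

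Levels were compared between genes after division by the length of the main annotated transcript. On this scale Slc34a1 was highest at 264 CPM per kb, followed by S100g at 122, Kl at 39.0, Vdr at 33.5 and Trpv5 at 29.1 CPM per kb. Cyp24a1 (19.8), Fgfr1 (15.2), Cyp27b1 (10.3) and Calb1 (9.98 CPM per kb) were lower, and Slc34a3 was lowest at 3.28 CPM per kb. S100g rises from the seventh place by CPM to the second per kb on its transcript of 480 nt. Neighbours in this order cannot be tested without values per mouse. Of the 10 genes, 9 averaged more than 10 CPM.

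The uncertainty of these genes was wide for their level. The approximate standard error of 8 of the 10 exceeded that of over 90% of the genes within 1.5-fold of the same average level. For S100g it was 0.25 (log2), where 3404 genes of like level had a median of 0.12. Cyp24a1, with 0.24 against 0.12, and Calb1, with 0.242 against 0.125, were similar. Vdr and Fgfr1 were the 2 exceptions, each at 0.125 (log2) and close to the median of their level. At these errors a gene needed a log2 fold change of about 0.79 for Calb1, 0.82 for S100g and 0.86 for Slc34a1 to be called, but 0.41 for Vdr and Fgfr1. Kl, at -0.50, fell short of the 0.57 it needed. Wide errors were not confined to the 10 genes. Those of the proximal tubule markers ran from 0.178 (Slc5a2) to 0.351 (Slc22a8) in log2 units.

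**Figure D4:**
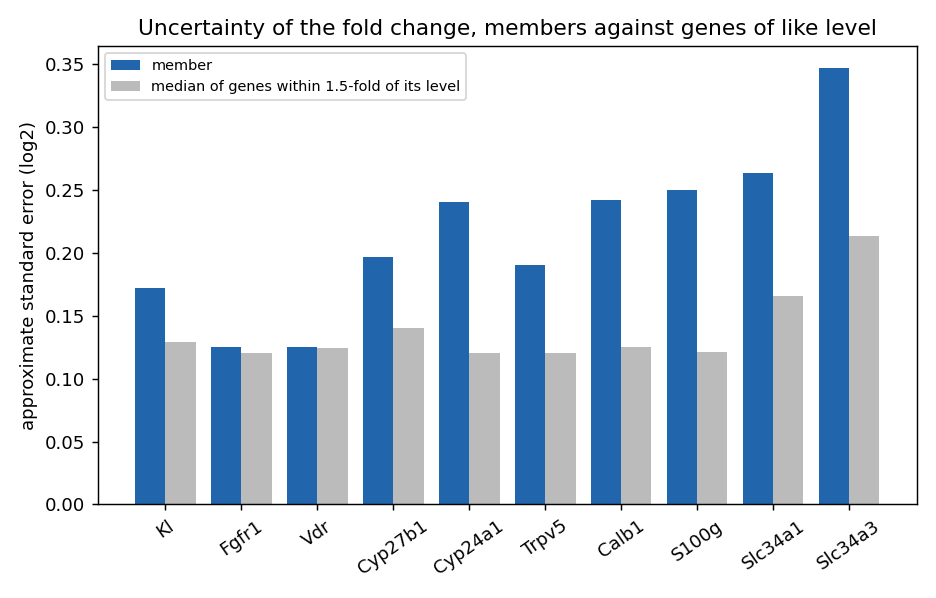
Approximate standard error of the log2 fold change for each of the 10 genes (blue bars) beside the median of all genes whose average level lies within 1.5-fold (grey bars). The blue bar is well above the grey bar for all but Vdr and Fgfr1.

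**Figure D5:**
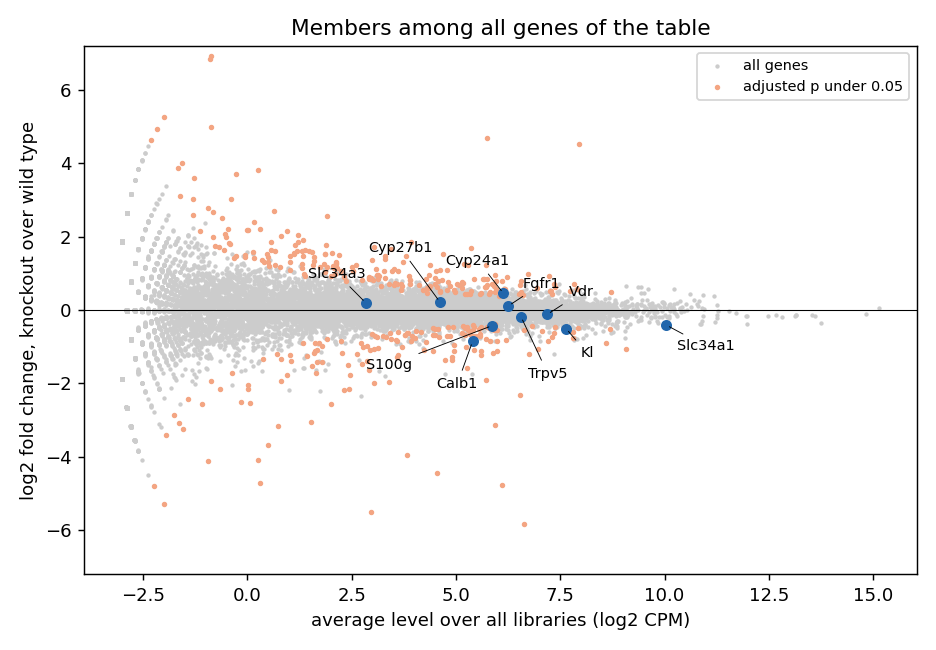
Log2 fold change, knockout over wild type, against average log2 CPM for all 18421 genes (grey), genes past an adjusted p of 0.05 (orange) and the 10 genes described here (blue, named). The 10 genes sit between -0.85 and 0.45.

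The stretches of 250 bases before the RefSeq start sites (GRCm38.p6) are shown for Kl, S100g and Slc34a1, the 3 genes with the most negative log2 fold changes after Calb1, so that their promoters can be compared. They lie at chr5:150952357-150952606 (plus strand), chrX:162964600-162964849 (minus strand) and chr13:55399398-55399647 (plus strand), and windows were found for 7 of the 10 genes. Calb1, the called gene, had no window, nor did Cyp24a1 and Fgfr1. The Slc34a1 window lies inside the GENCODE gene, whose annotated start is further upstream, and in none of its exons. Capitals mark matches on either strand to the TATA box TATAAA, the GC box GGGCGG, the half-site GTTAAT of hepatocyte nuclear factor 1, the nuclear receptor half-site AGGTCA, and GNTCANNNNGNTCA, a looser pattern that need not contain AGGTCA, of paired nuclear receptor half-sites with the spacing that the vitamin D receptor binds.
Kl: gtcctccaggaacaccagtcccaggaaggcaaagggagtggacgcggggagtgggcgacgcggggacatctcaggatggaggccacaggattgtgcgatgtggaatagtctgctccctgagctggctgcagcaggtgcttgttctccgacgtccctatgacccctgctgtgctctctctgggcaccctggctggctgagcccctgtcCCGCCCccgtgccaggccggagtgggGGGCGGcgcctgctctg
S100g: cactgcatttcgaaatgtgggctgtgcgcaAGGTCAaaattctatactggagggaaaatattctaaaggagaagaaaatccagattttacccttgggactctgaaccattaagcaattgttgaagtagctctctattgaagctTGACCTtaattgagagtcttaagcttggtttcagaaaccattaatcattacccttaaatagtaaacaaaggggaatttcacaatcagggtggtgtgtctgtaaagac
Slc34a1: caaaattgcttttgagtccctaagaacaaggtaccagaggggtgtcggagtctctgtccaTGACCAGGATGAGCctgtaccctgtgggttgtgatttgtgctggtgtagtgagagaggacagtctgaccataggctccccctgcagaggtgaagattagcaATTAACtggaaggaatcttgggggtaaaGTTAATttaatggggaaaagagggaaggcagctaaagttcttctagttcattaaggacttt
The Kl window is rich in G and C (66.8%, against a median of 52.4% over 32851 windows) and holds GGGCGG at 2 places, a motif found in 32.7% of windows. S100g holds AGGTCA at 2 places, as 4607 of the windows do at 1 or more. Slc34a1 holds GTTAAT at 2 places (6.43% of windows) and the looser spaced pair at 1 (0.548% of windows). None of these 3 windows holds TATAAA, which 12.4% of windows do. The 3 promoters thus share no motif of those searched. The motifs are not particular to them. GGGCGG also occurs in the window of Vdr (log2 fold change -0.12) and AGGTCA in that of Slc34a3 (0.20). A match is a description of these letters and not evidence that a factor binds there.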

How the data were processed

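RNA of 6 kidneys taken after UUO was sequenced as 50-nt single reads, per the labels, and edgeR and build mm10 are named in the submitters' processing notes. The aligner, read counting and use of strand stay unnamed, being not given in the sources used here. Per the file headers, each gene of the deposited table has a log2 fold change, a p-value, an FDR, a likelihood-ratio score and an average log2 CPM, all made by the authors. The deposited p-value equalled that of the score on a chi-square distribution, and the FDR the Benjamini-Hochberg value, within a relative 0.0001 for all 18421 genes. The planned quasi-likelihood fit needs counts per sample, so the authors' test was used. Library depth per sample is unknown.

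Positions came from GENCODE vM21 (GRCm38, the assembly of mm10). The 3 further deposited gene sheets were not used. The rule for named genes was the 10 genes, the called genes of each pathway list and the next 2 by p. The genes and lists were chosen with earlier results of these data known. The code for standard errors, intervals and adjustments was run on simulated scores that took these standard errors as true. That run cannot show whether the standard errors and intervals are right for these mice. The alternatives were an adjusted p of 0.1, an F distribution, a minimum fold change of 1.5, a minimum average of 1 CPM, an inflation factor of 1.09, centring on the median and the removal of chromosome 7, the last chosen after seeing the data. Python 3.11.15, pandas 2.3.3, numpy 2.4.6, scipy 1.17.1 and matplotlib 3.10.9 were used.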

Additional observations from a re-analysis of the deposited data

How the results depend on the processing

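Under the 7 alternatives, 9 of the 10 genes kept their side of the threshold under each, and Calb1 was the exception. The settings other than centring leave the log2 fold changes as they are, and centring shifts all of them by the same small amount, so they do not test the direction. With the F distribution it was no longer called (adjusted p = 0.22), which left 0 of the 10 genes called lower, beside 81 called genes in the whole table where the authors' edgeR test gave 379. Its adjusted p was 0.0485 with the inflation factor, close to the threshold, and 0.0368 without chromosome 7. Kl ranged from 0.0952, among genes at 1 CPM or more, to 0.344 with the F distribution. With an adjusted p of 0.1 as threshold, 1 further pathway gene was lower (Cldn19) and 1 higher (Gc), against 0 and 0 in the main setting. No paired analysis was possible because the files used here hold no value per sample. For the same reason leaving out single mice and a DESeq2 fit were not run, so whether 1 mouse decides the Calb1 value is unknown.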

Other observations

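The authors' deposited Gene Ontology table gives the wider setting of these genes. Of its 9062 terms, 11 on calcium or phosphate ion transport and homeostasis, vitamin D or fibroblast growth factor response were chosen after the values were seen. None passed an adjusted p of 0.05 in either direction in the authors' deposited table, where the smallest adjusted p was 0.748. That term was response to fibroblast growth factor, with 64 genes, 3 higher and 0 lower (the authors' deposited table, unadjusted p = 0.0395 for higher). The term for vitamin D binding held 5 genes, of which 1 was lower (the authors' deposited table, unadjusted p = 0.0446, adjusted p = 1). The term for calcium ion transport held 287 genes, 7 higher and 2 lower, and that for calcium ion homeostasis 282 genes, 7 higher and 4 lower, in the authors' deposited table (unadjusted p = 0.0534 and 0.0495 for higher). No gene of the terms for vitamin D metabolic process (14 genes), vitamin D receptor signalling (6) or phosphate ion homeostasis (11) was counted as higher or lower in the authors' deposited table.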
